A study of Mus musculus with 24 samples.

Results

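The small leucine-rich proteoglycans (SLRPs) are secreted matrix proteins built around a curved stack of leucine-rich repeats, and 10 of their genes, *Prelp*, *Omd*, *Dcn*, *Bgn*, *Lum*, *Fmod*, *Ogn*, *Aspn*, *Podn* and *Podnl1*, were described here among the 55291 genes of the count table. The list was drawn up by family. *Prelp* and *Omd* drew attention to it in an earlier look at these data, through their levels in the knockdown (KD) lines, so their KD values are given as a description with no test.

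In connective tissue, SLRP cores bind collagen fibrils and set their spacing and width, and several members also bind growth factors such as TGF-β and BMPs or signal through cell surface receptors. Decorin (*Dcn*), biglycan (*Bgn*) and asporin (*Aspn*) form class I, of which decorin and biglycan carry chondroitin or dermatan sulfate chains. Fibromodulin (*Fmod*), lumican (*Lum*), PRELP (*Prelp*) and osteomodulin (*Omd*) form class II, whose typical chains are keratan sulfate. Osteoglycin (*Ogn*, also mimecan) is in class III, and podocan (*Podn*) and podocan-like 1 (*Podnl1*) are in class V. In skeletal muscle the family is best known from fibroblasts and tendon, although cultured myoblasts also secrete decorin and biglycan.

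RNA-seq had been done on proliferating C2C12 cells, an immortalized mouse myoblast line, in 12 groups of 2 libraries. Cells carried a scrambled shRNA (scr) or an shRNA against *Baf180* (gene symbol *Pbrm1*), *Baf250a* (*Arid1a*) or *Brd9*, which are subunits of the PBAF, BAF and ncBAF forms of the SWI/SNF chromatin remodeler. Each line was kept in proliferation medium without added metal (NT), with 100 µM CuSO4 (Cu) or with 50 µM ZnSO4 (Zn) for 48 h. All lines, scr included, were stable puromycin-selected populations made by lentiviral transduction with shRNA plasmids, and the replicates of a group were independent biological replicates by the study's methods. The study lists 2 shRNAs for each target, and the sources used here do not give which of them the sequenced cells carried or whether both replicates came from 1 selected population, so differences between shRNAs or between selected populations cannot be told apart from the effect of the KD. The sample labels name primary myoblasts and a lipofection protocol, whereas the study's methods describe C2C12 cells and lentivirus, and the methods are followed here.

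Library totals ran from 12719173 to 75179394 counts, except for *Baf250a* KD Zn replicate 2 with 495778 counts. Some of the results that use that library are also given without it, and the others include it. In NT libraries the targeted genes were lower in their own KD lines, *Pbrm1* at 143 and 99.9 CPM in scr against 65.8 and 75.7 in *Baf180* KD, *Arid1a* at 283 and 292 against 100 and 98.8 in *Baf250a* KD, and *Brd9* at 27.2 and 32.4 against 17.9 and 17.0 in *Brd9* KD. CPM, the depth-scaled counts used here, are read pairs per 1e6 of the TMM-scaled library size, with all 24 libraries on the same scale. The myoblast markers *Myod1*, *Myf5*, *Pax7*, *Cdh15*, *Des* and *Msc* summed to a median of 2682 CPM in scr, 1701 in *Brd9* KD, 1575 in *Baf180* KD and 1196 in *Baf250a* KD. All 6 reached a median of at least 1 CPM in every line but *Baf250a* KD, where 4 did. The 6 passed the low-count filter through the scr libraries, and their calls were mixed. Without metal, 1 was called higher and 3 lower in *Baf180* KD, 1 and 5 in *Baf250a* KD and 1 and 3 in *Brd9* KD. Their median log2 fold changes were −0.29, −1.57 and −0.35. The 6 markers of differentiating muscle (*Myog*, *Mymk*, *Mymx*, *Myh3*, *Acta1* and *Ckm*) summed to a median of 72.9 CPM in scr (59.6 to 93.5), 119 in *Baf180* KD (109.7 to 157), 54.5 in *Baf250a* KD (51.9 to 68.1) and 30.7 in *Brd9* KD (26.8 to 33.8), so that order differed from the order of the SLRPs. Of the 5 that passed the low-count filter through the scr libraries, 3 were called higher in *Baf180* KD NT, 2 higher and 2 lower in *Baf250a* KD NT and 4 lower in *Brd9* KD NT.

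The members lie on 6 chromosomes of the GRCm38 genome. *Aspn* (chromosome 13, 49544443 to 49567565), *Omd* (49582462 to 49592822) and *Ogn* (49608046 to 49624501) follow each other on the plus strand, inside the span of *Cenpp*, which is read from the minus strand. *Prelp* (chromosome 1, 133910304 to 133921414, minus strand) and *Fmod* (134037254 to 134048277, plus strand) are 115.84 kb apart. *Dcn* (chromosome 10, 97479609 to 97518143) and *Lum* (97565128 to 97572703) are neighbors on the plus strand. *Bgn* is on chromosome X (73483602 to 73495933), *Podn* on chromosome 4 (108014791 to 108096445) and *Podnl1* on chromosome 8 (84125989 to 84132527). Read pairs were counted by strand, so *Cenpp* reads do not enter the counts of *Aspn*, *Omd* and *Ogn*. *Podn* overlaps *Scp2* on the same strand, and its counts are uncertain for that reason.

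RefSeq promoter windows of GRCm38.p6, from 250 bases before to 50 after the start, were at hand for 7 of the 10 members. The windows of the 3 chromosome 13 neighbors and of *Prelp* and *Fmod*, the pair on chromosome 1, are shown because these 5 genes include the widest differences between the lines. Capitals mark matches on either strand to the TATA box (TATAAA) and the E-box (CANNTG, the core bound by MyoD-type factors), each written 5′ to 3′ along the gene's strand.
*Aspn*, chr13:49544193-49544492, plus strand: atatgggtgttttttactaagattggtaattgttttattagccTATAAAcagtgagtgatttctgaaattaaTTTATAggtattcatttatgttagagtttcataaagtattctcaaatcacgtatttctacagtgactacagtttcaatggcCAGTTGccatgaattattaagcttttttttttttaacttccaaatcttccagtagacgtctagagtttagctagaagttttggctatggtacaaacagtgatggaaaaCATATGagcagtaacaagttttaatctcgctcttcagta
*Omd*, chr13:49582212-49582511, plus strand: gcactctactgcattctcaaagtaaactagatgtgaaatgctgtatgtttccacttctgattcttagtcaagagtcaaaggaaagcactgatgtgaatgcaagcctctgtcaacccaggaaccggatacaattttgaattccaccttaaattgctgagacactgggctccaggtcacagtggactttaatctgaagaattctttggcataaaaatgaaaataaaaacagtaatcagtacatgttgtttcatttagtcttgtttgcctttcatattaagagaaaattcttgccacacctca
*Ogn*, chr13:49607765-49608064, plus strand: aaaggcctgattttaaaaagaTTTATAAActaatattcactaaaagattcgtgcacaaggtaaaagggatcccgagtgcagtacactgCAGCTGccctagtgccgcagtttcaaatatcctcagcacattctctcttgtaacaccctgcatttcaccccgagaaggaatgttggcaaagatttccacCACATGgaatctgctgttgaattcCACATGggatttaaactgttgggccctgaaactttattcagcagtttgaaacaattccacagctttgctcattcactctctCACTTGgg
*Prelp*, chr1:133921352-133921651, minus strand: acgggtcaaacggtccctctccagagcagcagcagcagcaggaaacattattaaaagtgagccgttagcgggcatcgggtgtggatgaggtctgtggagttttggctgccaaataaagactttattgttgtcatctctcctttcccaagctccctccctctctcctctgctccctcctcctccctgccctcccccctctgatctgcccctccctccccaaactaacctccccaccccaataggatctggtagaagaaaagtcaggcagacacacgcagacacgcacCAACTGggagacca
*Fmod*, chr1:134037004-134037303, plus strand: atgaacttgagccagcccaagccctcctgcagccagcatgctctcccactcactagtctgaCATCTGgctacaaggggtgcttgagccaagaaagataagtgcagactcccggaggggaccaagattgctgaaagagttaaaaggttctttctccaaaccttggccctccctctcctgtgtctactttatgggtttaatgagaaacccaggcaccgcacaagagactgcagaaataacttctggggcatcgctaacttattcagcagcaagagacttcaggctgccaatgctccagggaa

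The 5 windows differed in motif matches and GC content, and their sequences were not aligned. *Aspn* held 2 separate TATA matches, and the 2 of *Ogn*, 1 on each strand, overlap in the single stretch TTTATAAA. *Omd*, *Prelp* and *Fmod* held none, and 13.6% of 32851 RefSeq windows held at least 1. E-box matches numbered 4 in *Ogn*, 2 in *Aspn*, 1 in *Prelp*, 1 in *Fmod* and 0 in *Omd*, against a share of 72.3% of all windows. The metal response element core (TGCACNC or TGCGCNC, the letters recognised by MTF1) matched once in *Ogn* and in none of the other 4, against 25.7% of all windows. None of the 5 held an AP-1 match (TGANTCA, 7.8% of all windows). GC content was 31.0% in *Aspn*, 37.7% in *Omd*, 42.3% in *Ogn*, 51.0% in *Fmod* and 55.3% in *Prelp*, with a median of 52.7% over all windows. A match is a run of letters in this window and was not read as a bound site.

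The summed SLRP level was higher in every KD line than in scr and highest in *Baf250a* KD. Over the 10 members it was a median of 367 CPM in scr (range 288 to 401 over 6 libraries), 676 in *Brd9* KD (608 to 771), 1639 in *Baf180* KD (1545 to 1880) and 2831 in *Baf250a* KD (2042 to 3105). The 4 ranges did not overlap. Per kilobase of exon, *Bgn* alone made up a median of 66.0% of the family's sum in scr, 80.5% in *Brd9* KD, 82.3% in *Baf180* KD and 69.8% in *Baf250a* KD. By line means, 9 of the 10 members followed the order *Baf250a* KD, *Baf180* KD, *Brd9* KD, scr from high to low, an order that 12.9% of 16524 genes also followed. *Lum* was the exception because it was at 0 in both *Brd9* KD and scr. These numbers include *Prelp* and *Omd*, and the order of the members is a description.

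**Figure D1:**
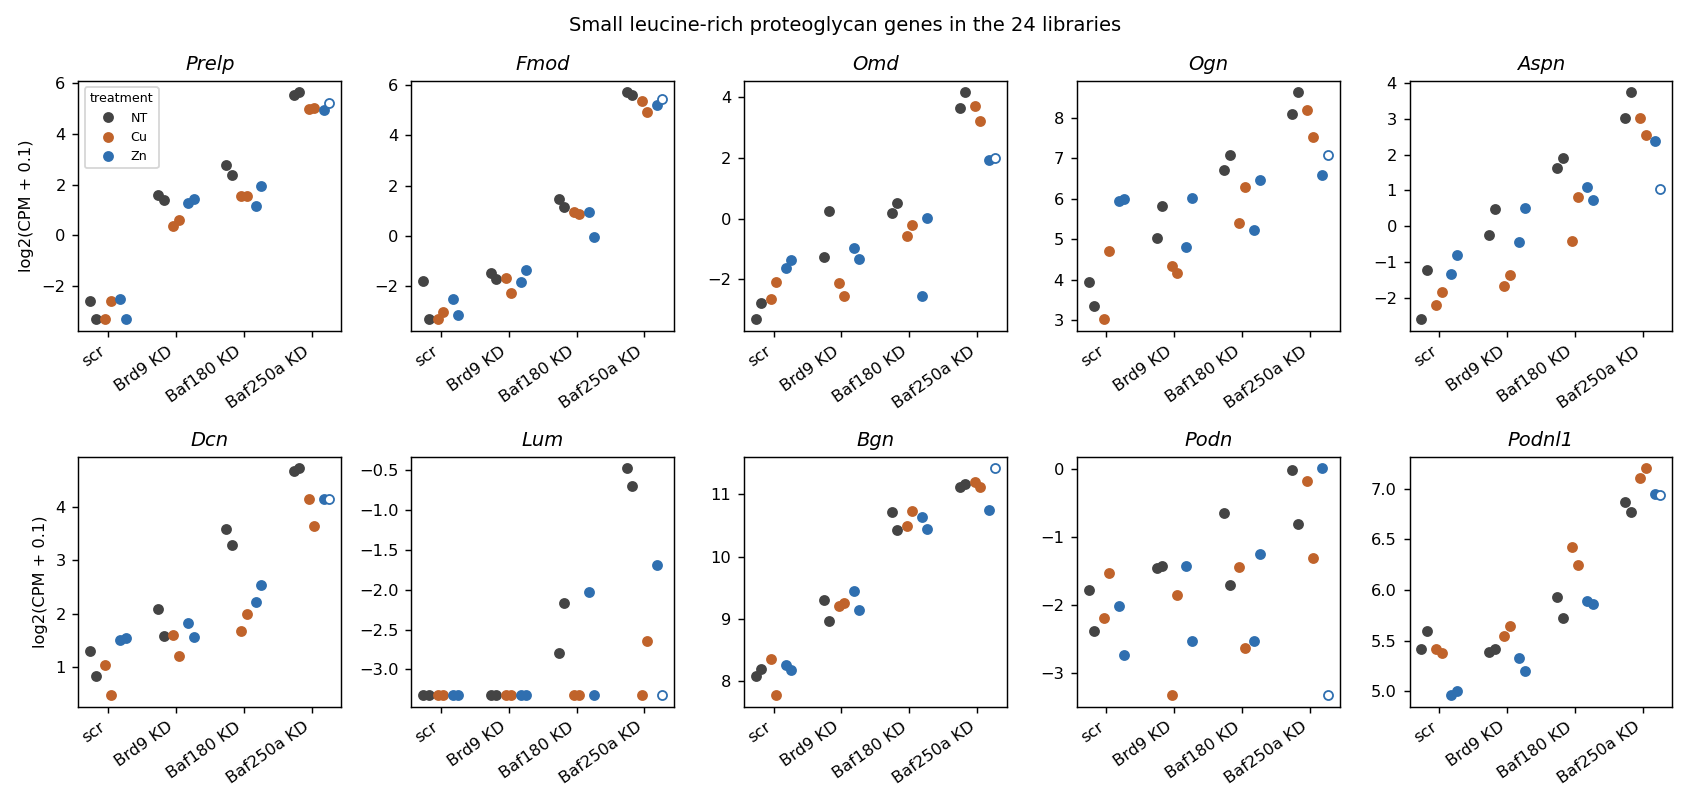
Level of each small leucine-rich proteoglycan gene in all 24 libraries, as log2 of CPM plus 0.1 (vertical axis, its own range in each panel), by cell line (horizontal axis) and treatment (color: NT, Cu or Zn); each point is 1 library, and the open blue circle is *Baf250a* KD Zn replicate 2, which held 495778 counts. *Prelp*, *Fmod*, *Aspn*, *Dcn*, *Bgn* and *Podnl1* lie above all 6 scr libraries in every *Baf180* KD and *Baf250a* KD library, while *Ogn* of scr rises to 64.1 CPM with Zn and overlaps *Baf180* KD.

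Per kilobase of exon, the order of the members in scr was *Bgn* at a median of 47.7 CPM per kb, *Podnl1* at 11.9, *Ogn* at 8.06, *Dcn* at 0.369 and *Aspn* at 0.101, with *Omd*, *Podn*, *Prelp*, *Fmod* and *Lum* at 0.0428 or less. Among these first 5, neighbors in the order did not overlap over 6 libraries, except for *Podnl1* (8.75 to 13.6) and *Ogn* (3.12 to 25.0). In *Baf250a* KD the order became *Bgn* (370), *Ogn* (89.2), *Podnl1* (34.6), *Fmod* (12.7), *Prelp* (9.61), *Omd* (4.78), *Dcn* (3.01) and *Aspn* (2.94). There *Bgn* was clear of *Ogn*, *Podnl1* of *Fmod* and *Prelp* of *Omd*, and the other neighbors overlapped. *Ogn* and *Podnl1* did so only through Zn replicate 1, where *Ogn* was at 37.3 CPM per kb. Ranked by CPM per kb among the 23717 genes with a count in scr NT, *Bgn* stood at 1067, *Podnl1* at 4035, *Ogn* at 7311 and *Fmod* at 20622. Among the 23610 such genes of *Baf250a* KD NT, *Bgn* was at 55, *Ogn* at 229, *Podnl1* at 1436 and *Fmod* at 3296.

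Which members differed between each KD line and scr was asked within each treatment, 4 libraries at a time, with edgeR's quasi-likelihood test and Benjamini-Hochberg adjustment over all genes tested. All 3 KD lines were compared with the same scr libraries, so their results are not independent of each other. Only 4 of the 10 members, *Dcn*, *Bgn*, *Ogn* and *Podnl1*, passed the low-count filter through the scr libraries, and the others entered a fit only where a KD line was high enough, so that they had to differ. Their log2 fold changes over scr are therefore given singly, as a description with no test. Without added metal, all 4 were higher in *Baf180* KD and in *Baf250a* KD and 2 (*Bgn* and *Ogn*) in *Brd9* KD. Over all genes tested, 21.7%, 28.9% and 15.1% were called higher in these 3 comparisons. With Cu the 4 members were again higher in *Baf180* KD and *Baf250a* KD, against 14.2% and 21.1% of all genes, and *Bgn* alone was higher in *Brd9* KD, against 6.94%. With Zn, 3 of the 4 were higher in *Baf180* KD (24.9% of all genes), 4 in *Baf250a* KD (29.4%) and 2 in *Brd9* KD (12.6%). None of the 4 was called lower in any of the 9 comparisons by this fit, but *Ogn* of *Brd9* KD with Zn was called lower with the replicate block, with all genes of at least 1 count and in 3 of the 4 fits without 1 library. Over all genes, 19.3%, 28.9% and 14.1% were called lower in *Baf180*, *Baf250a* and *Brd9* KD without metal, 10.7%, 20% and 5.27% with Cu and 24.9%, 28.1% and 10.6% with Zn.

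Biglycan, the most abundant member, was called higher than scr in every KD line under every treatment, which none of the other 3 tested members was. *Bgn* stood at 269 and 293 CPM in scr NT, 1690 and 1370 in *Baf180* KD NT, 2227 and 2288 in *Baf250a* KD NT and 633 and 501 in *Brd9* KD NT. The groups did not overlap. The log2 fold change over scr was 2.46 ± 0.13 (SE) in *Baf180* KD (edgeR adjusted p = 7.1e-08), 3.0 ± 0.11 in *Baf250a* KD (1.7e-10) and 1.03 ± 0.11 in *Brd9* KD (7.3e-04). With metal the differences were much the same size, 2.52, 3.09 and 1.13 with Cu and 2.26, 2.92 and 1.05 with Zn, all called. In *Baf250a* KD with Zn the value was 2.51 without the shallow library, where *Bgn* was at 2743 CPM against 1729 in its partner. The nearest protein-coding gene below *Bgn* on the X chromosome, *Haus7* at 24.6 kb, did not pass the test in any KD line without metal (log2 fold changes of 0.12, 0.05 and −0.30). *Atp2b3*, the nearest above and closer at 7.15 kb, did not pass the low-count filter in these comparisons and has no value.

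Decorin was much scarcer. *Dcn* was at 2.36 and 1.67 CPM in scr NT, 11.8 and 9.59 in *Baf180* KD, 25.2 and 26.2 in *Baf250a* KD and 4.17 and 2.90 in *Brd9* KD. Its log2 fold change was 2.44 ± 0.24 in *Baf180* KD (edgeR adjusted p = 1.2e-05) and 3.70 ± 0.19 in *Baf250a* KD (5.8e-09), while 0.85 ± 0.31 in *Brd9* KD missed the threshold (0.073). With a correction for GC content and transcript length the *Baf180* KD and *Baf250a* KD values were smaller, at 1.74 (edgeR adjusted p = 3.3e-04) and 2.86 (4.8e-08). With metal the *Baf180* KD difference was 1.14 (Cu, adjusted p = 0.027) and 0.84 (Zn, 0.0083), and the *Baf250a* KD difference was 3.30 and 2.64. The Cu difference of *Baf180* KD was of like size with DESeq2 (1.11, adjusted p = 0.060) and with the correction for GC content and transcript length (1.12, 0.073), both past the threshold no longer. Without 1 library it ran from 0.83 to 1.41 and was called only without scr Cu replicate 1.

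Asporin, a class I protein without the usual glycosaminoglycan site, was near the floor in scr. *Aspn* was at 0.0637 and 0.325 CPM in scr NT, 8 read pairs in all, and at 3.0 and 3.62 in *Baf180* KD, 8.01 and 13.3 in *Baf250a* KD and 0.738 and 1.28 in *Brd9* KD. Every KD library was above both scr libraries. The log2 fold change was 3.95 ± 0.51 in *Baf180* KD, 5.59 ± 0.44 in *Baf250a* KD and 2.21 ± 0.65 in *Brd9* KD. With the GC content and length correction the *Baf180* KD value was 3.07 and the *Brd9* KD value 1.19. With metal, the *Baf180* KD difference was 2.85 (Cu) and 2.03 (Zn) and the *Baf250a* KD difference 5.42 and 3.51. The *Baf250a* KD value with Zn was 3.57 without the shallow library, which held 1 *Aspn* read pair.

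Osteoglycin, the class III member, was higher than scr in all KD lines without metal. *Ogn* was at 15.2 and 10.1 CPM in scr NT, 104 and 136 in *Baf180* KD, 272 and 396 in *Baf250a* KD and 32.4 and 56.7 in *Brd9* KD. The log2 fold changes were 3.28 ± 0.20 (edgeR adjusted p = 2.3e-07), 4.74 ± 0.21 (1.5e-09) and 1.85 ± 0.29 (0.0036). With the GC content and length correction the *Baf180* KD value was smaller, at 2.57 (edgeR adjusted p = 5.0e-08). With Cu they were 1.76 (0.012, not called by DESeq2 at 0.14) in *Baf180* KD, 3.76 in *Baf250a* KD and 0.09 (0.93) in *Brd9* KD. The scr Cu replicates were far apart, at 8.0 and 26.2 CPM, and without the lower of them *Brd9* KD was below scr (−0.49, adjusted p = 0.010). With Zn, where scr stood at 61.7 and 64.1 CPM, the values were −0.02 ± 0.30 (0.96) in *Baf180* KD, 0.64 ± 0.09 (2.0e-08) in *Baf250a* KD and −0.49 ± 0.31 (0.29) in *Brd9* KD. The *Baf250a* KD value includes the shallow library, at 136 CPM against 95.8 in its partner, and is not given without it. That *Brd9* KD value was −0.56 with the replicate number as a block, which is not read as a pairing. The blocked p-value is not given, because the *Brd9* KD Zn replicates lay far apart, at 28.1 and 64.6 CPM. Without 1 library it was called lower in 3 of 4 fits, the lowest being −1.23 without *Brd9* KD Zn replicate 2, and was at 0.024 without replicate 1 of that group. With the GC content and length correction the *Baf180* KD and *Baf250a* KD values became 0.59 (0.0092) and 1.95 (0.0012), and without *Baf180* KD Zn replicate 1, at 37.7 CPM against 88.6 in its partner, the *Baf180* KD value was 0.45 and called.

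*Podnl1*, the class V member that scr expressed, was higher in *Baf250a* KD under every treatment. *Podnl1* was at 42.6 and 48.4 CPM in scr NT, 61.0 and 52.7 in *Baf180* KD, 117 and 109 in *Baf250a* KD and 41.7 and 42.7 in *Brd9* KD. The log2 fold change was 1.31 ± 0.11 in *Baf250a* KD (edgeR adjusted p = 6.0e-07) and 0.33 ± 0.12 in *Baf180* KD, where the adjusted p of 0.041 was close to the threshold and DESeq2 gave 0.085. For *Baf180* KD the edgeR adjusted p was 0.10 with the replicate block and 0.011 with the GC content and length correction. Without 1 library its log2 fold change ran from 0.20 to 0.43. In *Brd9* KD it was −0.09 ± 0.11 (0.57). With Cu and Zn the *Baf180* KD difference was 0.93 and 0.84 and the *Baf250a* KD difference 1.79 and 1.95. The *Brd9* KD value of 0.25 with Zn was called (0.0497), but was 0.01 (0.95) with the GC content and length correction and 0.18 in adjusted p with DESeq2. *Podn* had 5 read pairs in scr NT (0.191 and 0.0929 CPM) and 33 in *Baf250a* KD NT (0.890 and 0.471), a log2 fold change of 2.31 ± 0.67.

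**Figure D2:**
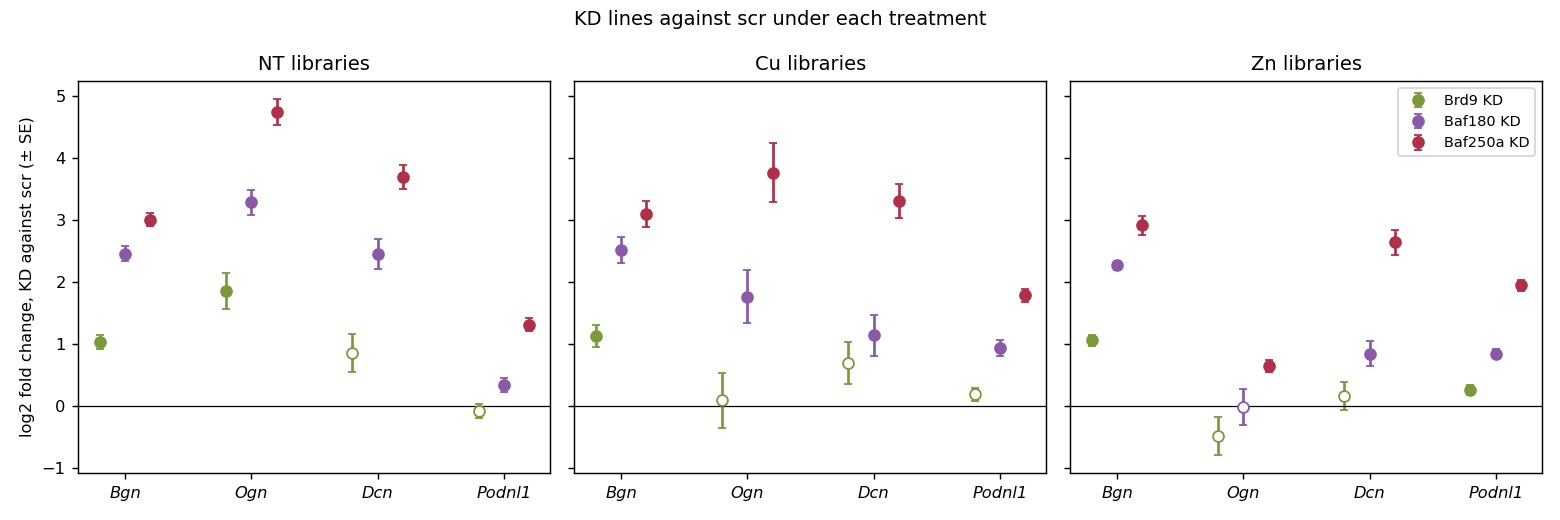
Log2 fold change of each KD line over scr (vertical axis, point with ± SE from edgeR) for the 4 members that passed the low-count filter through the scr libraries, within NT, Cu and Zn libraries (panels, 2 libraries per group); filled points have an adjusted p under 0.05 and open points do not. Over the 3 panels *Bgn* stays between 1.03 and 1.13 in *Brd9* KD, 2.26 and 2.52 in *Baf180* KD and 2.92 and 3.09 in *Baf250a* KD, while *Ogn* falls from 3.28 and 4.74 without metal to −0.02 and 0.64 with Zn in *Baf180* KD and *Baf250a* KD.

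*Fmod* and *Lum*, both of class II, were almost silent in scr. *Fmod* had 3 read pairs in scr NT (0.191 and 0 CPM) and stood at 2.69 and 2.14 CPM in *Baf180* KD, 51.9 and 48.7 in *Baf250a* KD and 0.264 and 0.202 in *Brd9* KD. Against that near-zero background the ratio to scr was 29.8 in *Baf180* KD (exact 95% interval of the counts 9.94 to 147), 626 in *Baf250a* KD (214 to 3040) and 2.94 in *Brd9* KD (0.705 to 17.2, which includes 1). These intervals cover counting error only. *Lum*, the collagen-binding keratan sulfate proteoglycan of cornea and other tissues, had no read pair in any scr or *Brd9* KD library. It reached 0.619 and 0.518 CPM in *Baf250a* KD NT, 27 read pairs, which is at least 7.12-fold over a floor of 3 read pairs for the scr group. In *Baf250a* KD it had 1 read pair with Cu and 3 with Zn, and 4, 0 and 2 in *Baf180* KD with NT, Cu and Zn.

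*Prelp* and *Omd*, the 2 members that drew attention to the family, are described with no test. *Prelp*, whose product has a heparin-binding arginine-rich end and links basement membrane to matrix, had 1 read pair in scr NT (0.0637 and 0 CPM), 6.68 and 5.06 CPM in *Baf180* KD, 46.4 and 49.9 in *Baf250a* KD and 2.90 and 2.57 in *Brd9* KD. The ratios to scr were 217 (exact 95% counting interval 38.7 to 8612), 1787 (320 to 70609) and 102 (17.9 to 4091). All 6 libraries of every KD line were above all 6 scr libraries. *Omd*, first known from bone, had 1 read pair in scr NT and stood at 1.03 and 1.32 CPM in *Baf180* KD, 12.3 and 17.7 in *Baf250a* KD and 0.316 and 1.08 in *Brd9* KD. Its ratios were 43.9 (7.56 to 1766), 550 (98.4 to 21767) and 24.2 (3.92 to 1001). With Zn, scr itself held 29 *Omd* read pairs (0.222 and 0.292 CPM), and *Baf180* KD replicate 1 held 1 (0.0726 CPM), below both, so *Omd* of *Baf180* KD and *Brd9* KD overlapped scr over all treatments.

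Over all treatments, of the 4 members that passed the filter through scr, 3 were higher in every *Baf180* KD library than in every scr library (*Dcn*, *Bgn* and *Podnl1*), against 14.6% of 16524 genes. All 4 were in *Baf250a* KD, against 14%, and *Bgn* alone was in *Brd9* KD, against 9.33%. Of the others, which are not read against these shares, *Prelp*, *Fmod* and *Aspn* lay above all scr libraries in *Baf180* KD, the same 3 and *Omd* in *Baf250a* KD (*Podn* too without the shallow library) and *Prelp* in *Brd9* KD. The levels of *Prelp* and *Omd* in the KD lines are those that drew attention to the family.

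Markers of other cell types were examined because the family is typical of fibroblasts. The 8 fibroblast or fibro-adipogenic markers summed to a median of 46.0 CPM in scr (36.1 to 49.97), 101 in *Brd9* KD (83.2 to 119), 134 in *Baf180* KD (113 to 141) and 225 in *Baf250a* KD (219 to 230), the same order of lines as the SLRPs. *Pdgfra*, *Ly6a*, *Cd34* and *Twist2* carried that sum, with *Pdgfra* at 4.21 CPM in scr and 58.2 in *Baf250a* KD. *Dpt* and *Pi16* stayed under 1 CPM in every library, *Thy1* was at 0 in most libraries and at most 0.0637 CPM, and *Tcf21* did not exceed 0.0305 CPM. The 5 tendon markers summed to 115 CPM in scr, 138 in *Brd9* KD, 265 in *Baf180* KD and 185 in *Baf250a* KD. Of the 2 that passed the low-count filter through scr, 1 was called higher and 1 lower in each KD line without metal. The 8 bone or cartilage markers summed to 228, 241, 251 and 335 CPM in scr, *Brd9*, *Baf180* and *Baf250a* KD, and the cartilage collagen *Col2a1* was at 41.1 CPM in *Baf250a* KD against 0.0529 in scr. Endothelial and leukocyte markers summed to 6.22 CPM or less in every library. The part of other cell types in the SLRP differences was not tested, and a different share of cells and a different RNA level per cell cannot be told apart in bulk samples.

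The KD lines were then compared with each other, with the 3 treatments weighted equally in a fit of all 24 libraries. Counts here cover the members that reached the low-count filter in each of the lines compared, *Prelp* and *Omd* left out. Against *Baf250a* KD, *Baf180* KD was lower for all 6 such members (21.5% of all genes were called lower). The log2 difference was −4.54 ± 0.15 for *Fmod*, −1.89 ± 0.23 for *Aspn*, −1.71 ± 0.12 for *Dcn*, −1.40 ± 0.26 for *Ogn*, −0.96 ± 0.06 for *Podnl1* and −0.56 ± 0.11 for *Bgn*, the edgeR adjusted p being 2.3e-04 for *Bgn* and lower for the others. *Bgn* was at −0.44 without the shallow library and still called.

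Against *Brd9* KD, *Baf180* KD was higher for all 5 such members (20.5% of all genes). The log2 difference was 1.63 ± 0.29 for *Aspn*, 1.35 ± 0.11 for *Bgn*, 1.20 ± 0.26 for *Ogn*, 0.91 ± 0.14 for *Dcn* and 0.60 ± 0.06 for *Podnl1*. *Baf250a* KD exceeded *Brd9* KD for the same 5 (26.6% of all genes), by 3.51 ± 0.27 for *Aspn*, 2.62 ± 0.13 for *Dcn*, 2.59 ± 0.28 for *Ogn*, 1.91 ± 0.11 for *Bgn* and 1.56 ± 0.06 for *Podnl1*. *Fmod*, *Podn* and *Lum* did not reach the filter in *Brd9* KD, nor *Podn* and *Lum* in *Baf180* KD, so these values have no test. *Fmod* stood 3.08 (*Baf180* KD) and 7.62 (*Baf250a* KD) above *Brd9* KD, where it had 24 read pairs over 6 libraries. *Podn* was at −1.55 for *Baf180* KD against *Baf250a* KD and 1.99 for *Baf250a* KD against *Brd9* KD, but at 0.91 and −0.47 without *Baf250a* KD Zn replicate 1, which leaves the shallow library alone in that group. *Prelp* differed by −3.31 between *Baf180* and *Baf250a* KD and by 4.15 between *Baf250a* and *Brd9* KD, and *Omd* by −3.46 and 4.86, as a description.

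Position on the chromosome was described for the chromosome 13 neighbors because 3 members and another leucine-rich repeat gene, *Ecm2*, lie within 119.7 kb of each other in the span of *Cenpp*. *Ecm2*, at 0.701 and 0.372 CPM in scr NT, passed the low-count filter through the KD libraries and is described with no test. Its log2 fold change was 1.53 ± 0.48 in *Baf180* KD NT, 4.21 ± 0.32 in *Baf250a* KD NT and 0.88 ± 0.47 in *Brd9* KD NT. *Cenpp*, a centromere protein gene on the other strand, did not pass in any line, at −0.32 ± 0.21, −0.20 ± 0.20 and −0.02 ± 0.19. *Nol8*, the next gene on the plus strand, was higher by 0.93 ± 0.22 (edgeR adjusted p = 0.0056) and 0.81 ± 0.18 (0.0022) in *Baf180* and *Baf250a* KD, and its 0.87 ± 0.29 in *Brd9* KD was not called (0.056). In *Baf180*, *Baf250a* and *Brd9* KD NT the log2 fold changes of *Ogn* were 3.28, 4.74 and 1.85, beside 0.93, 0.81 and 0.87 for *Nol8*. *Aspn* and *Ecm2* entered the fits through the KD libraries and had to differ, so they are not read against *Nol8*. *Omd*, with 1 read pair in scr NT, has the ratios of 43.9 and 550 given before.

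**Figure D3:**
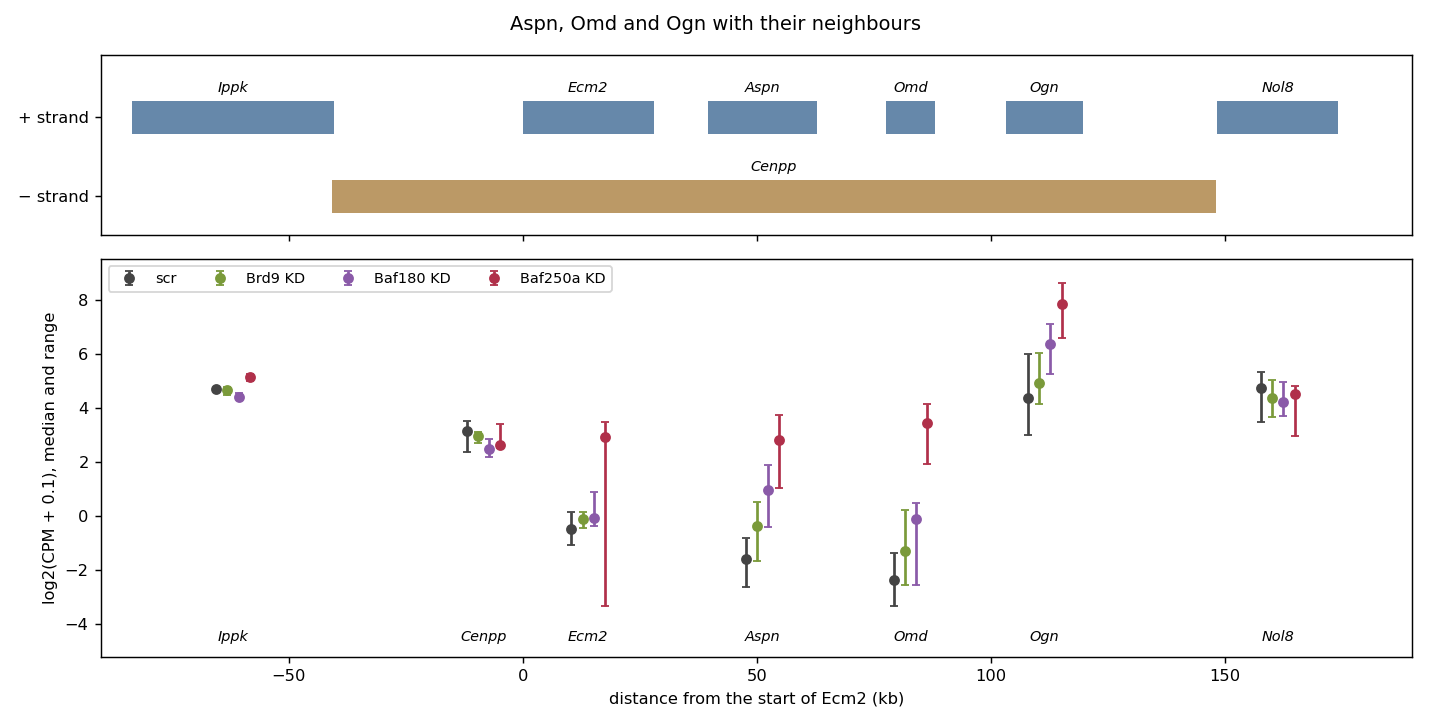
Genes around *Aspn*, *Omd* and *Ogn* by distance from the start of *Ecm2* in kb (upper panel, boxes to scale, by strand) and their levels in the 4 cell lines (lower panel, log2 of CPM plus 0.1, point at the median and bar over the range of 6 libraries), with the *Cenpp* values drawn to the left of its midpoint to keep them apart. The lines spread widely for *Ecm2*, *Aspn*, *Omd* and *Ogn*, and lie close together for *Ippk*, *Cenpp* and *Nol8*; the low end of *Ecm2* in *Baf250a* KD is the shallow Zn library.

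On chromosome 1, *Optc*, the opticin gene of another SLRP class, lies 2.31 kb from *Prelp*. It had 6 read pairs in scr NT and entered the fits through the KD libraries, with log2 fold changes of 1.79 ± 0.66 in *Baf180* KD NT and 3.13 ± 0.56 in *Baf250a* KD NT. *Btg2*, 26.9 kb from *Fmod*, was lower in *Baf180* KD (−0.88) and *Brd9* KD (−0.94) and higher in *Baf250a* KD (0.30). *Btg1*, the nearest protein-coding gene below *Dcn* at 857 kb, had log2 fold changes of 0.35, 0.26 and 0.03. *Kera*, next to *Lum*, was detected with too few counts to be tested. *Cc2d1a*, 0.301 kb above *Podnl1*, was called higher in *Baf180* KD (0.32, edgeR adjusted p = 0.027). It was not called in *Baf250a* KD (0.24, 0.082) or *Brd9* KD (0.13, 0.34). *Dcaf15*, 21.2 kb below *Podnl1*, was not called (0.06, 0.06 and 0.17).

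Other genes of the pathway were counted where they passed the filter through the scr libraries. For reading these counts, 21.7%, 28.9% and 15.1% of all genes were called higher in *Baf180*, *Baf250a* and *Brd9* KD NT and 19.3%, 28.9% and 14.1% lower, with median log2 fold changes of 0.03, 0.00 and 0.01. Of the 8 SLRP genes outside the list, 1 of 3 was higher in *Baf180* KD NT and 2 of 3 in *Baf250a* KD NT, where 1 was lower, and neither of 2 was called in *Brd9* KD NT.

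The enzymes that build the chains were mixed. Of the 18 chain-making enzymes, 15 were counted, and 6 were higher and 1 lower in *Baf180* KD NT, 8 and 2 in *Baf250a* KD NT and 5 and 1 in *Brd9* KD NT, with medians of 0.02, 0.42 and 0.04. *Pxylp1*, a phosphatase that acts on the xylose of the linkage region, rose by 1.63, 2.67 and 1.24, *Dsel*, which takes part in dermatan sulfate formation, by 0.82, 1.34 and 0.74, and *Csgalnact1*, which starts chondroitin chains, by 0.92, 0.87 and 0.71. Of the 14 sulfation genes, 11 were counted, and 7 were higher and 1 lower in *Baf180* KD NT, 8 and 1 in *Baf250a* KD NT and 5 and 1 in *Brd9* KD NT, with medians of 0.50, 0.83 and 0.21. *Chst15*, a chondroitin sulfotransferase, rose by 2.33, 2.72 and 1.15, *Chst1*, a keratan sulfate sulfotransferase, by 1.57, 1.77 and 1.05, and *Chst7* by 1.98, 2.21 and 0.94.

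Of the 18 collagens and other binding partners, 12 were counted, and 9 were higher in *Baf180* KD NT, 11 in *Baf250a* KD NT and 6 in *Brd9* KD NT, with 1 lower in each and medians of 1.55, 2.09 and 0.34. *Col6a1*, a chain of the beaded-filament collagen VI that binds decorin and biglycan, rose by 5.82, 6.83 and 4.54. Its partner chain *Col6a2*, with 12 and 6 read pairs in scr NT, entered through the KD libraries and was at 7.81, 8.77 and 6.43. *Col12a1* *Col12a1*, a fibril-associated collagen, rose by 3.27, 4.96 and 2.03. Of 17 receptors and growth factors, 15 were counted, and 8 were higher and 1 lower in *Baf180* KD NT, 13 and 2 in *Baf250a* KD NT and 6 and 1 in *Brd9* KD NT, with medians of 0.43, 1.09 and 0.16. *Bmp4* rose by 4.42, 5.61 and 2.86, *Egfr*, a receptor that decorin binds, by 2.90, 3.80 and 1.56, and *Tgfbr1*, a type I TGF-β receptor, by 1.01, 1.20 and 0.85.

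Of 21 other proteoglycan genes, 11 were counted, and 5 were higher and 4 lower in *Baf180* KD NT, 6 and 2 in *Baf250a* KD NT and 5 and 2 in *Brd9* KD NT, with medians of 0.10, 0.30 and 0.36. *Vcan*, a large chondroitin sulfate proteoglycan, rose by 2.94, 4.10 and 1.85, *Spock2* by 2.43, 2.02 and 1.70 and *Cspg4* by 1.52, 1.08 and 0.94. Of 13 proteases that act on the family or its matrix, 8 were counted, and 4 were higher and 2 lower in *Baf180* KD NT, 5 and 1 in *Baf250a* KD NT and 1 and 2 in *Brd9* KD NT, with medians of 0.41, 0.65 and −0.06. *Mmp2* rose by 2.38, 3.73 and 2.14, while *Htra1*, a secreted serine protease that cleaves decorin and biglycan, fell by 1.14, 1.00 and 1.16 on the log2 scale. The genes named from these lists are those called in the same direction in all 3 KD lines without metal.

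Metal responses of the members were tested within each line, on its 6 libraries. In the KD lines these tests start from KD levels, through which *Prelp* and *Omd* drew attention to the family. Calls of these 2 genes in KD lines are therefore given as a description. In scr, 2 of the 4 members tested passed with Zn, 1 up and 1 down (10.5% and 7.13% of all genes were called). *Ogn* rose from 15.2 and 10.1 CPM to 61.7 and 64.1, a log2 change of 2.42 ± 0.48 (edgeR adjusted p = 0.028), and *Podnl1* fell from 42.6 and 48.4 CPM to 31.0 and 31.9, a change of −0.44 ± 0.09 (0.029). The scr Zn libraries also had a trend with GC content, with slopes of −0.253 and −0.344 in log2 per 10 points of GC, against 0.108 and 0.318 in scr NT. *Ogn* transcripts have 36.3% GC and *Podnl1* 58.0%, where the median of 12695 protein-coding genes is 49.8%. With that trend and length taken out, *Ogn* was at 1.35 (0.058) and *Podnl1* at −0.18 (0.30), both past the threshold no longer. *Dcn* was at 0.57 (0.22), and at −0.47 (0.53) with the correction. With Cu, none of the 4 passed in scr, none at an unadjusted p under 0.05 either, and *Ogn* was at 0.54 ± 0.48 with the replicates at 8.0 and 26.2 CPM. DESeq2 called none of them, and 0.0333% of all genes were called.

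In *Baf180* KD, *Dcn*, *Prelp* and *Aspn* were lower with Cu. In all, 4 of the 8 members tested passed, 3 down, *Prelp* among them, and 1 up, against 8.3% and 5.46% of all genes. The KD level of *Prelp* drew attention to the family, so the count is a description. *Dcn* fell from 11.8 and 9.59 CPM to 3.07 and 3.87, a log2 change of −1.65 ± 0.20 (edgeR adjusted p = 0.0036), which was −1.23 (0.013) with the GC content and length correction. *Prelp* fell from 6.68 and 5.06 CPM to 2.80 and 2.83 (−1.09 ± 0.27, 0.028, and −1.20 at 0.029 corrected). *Aspn* was lower by −1.51 ± 0.39 (0.032) and *Podnl1* higher by 0.47 ± 0.10 (0.016), from 61.0 and 52.7 CPM to 85.8 and 75.7, and both missed the threshold after the correction (0.096 and 0.080). *Ogn*, at 42.4 and 78.1 CPM with Cu, did not pass (−1.03 ± 0.35, 0.076), but did with the replicate number as a block (−1.09, 1.5e-04). Only *Dcn* kept its call whichever library was left out. With Zn, none of the 8 passed after adjustment by edgeR, nor any of the 3 that DESeq2 gave an adjusted p, against 0.0197% of all genes called. At an unadjusted p under 0.05, 5 did, but the share of all genes under that p was not taken, so this count is not read. *Dcn*, at 4.57 and 5.70 CPM, was at −1.06 ± 0.20 (edgeR adjusted p = 0.19). With the replicate block, *Dcn* (−1.06, edgeR adjusted p = 0.0089) and *Ogn* (−1.03, 0.0035) were called with Zn. Samples of 1 number deviated together in this line, so the blocked values stand beside the others here. Replicate 1 also had a higher GC slope than replicate 2 under every treatment of this line. The part of GC content in the blocked calls was not tested.

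In *Baf250a* KD, the chromosome 13 members *Aspn*, *Omd* and *Ogn* and 3 others were lower with Zn. In all, 6 of the 9 members tested were lower with Zn and none higher, against 7.02% and 8.85% of all genes. These 6 include *Prelp* and *Omd*, whose KD levels drew attention to the family, so the count is a description. *Omd* fell from 12.3 and 17.7 CPM to 3.69 and 3.89 (log2 change −2.02 ± 0.27, edgeR adjusted p = 2.6e-05), *Ogn* from 272 and 396 to 95.8 and 136 (−1.69 ± 0.19, 4.8e-06) and *Aspn* from 8.01 and 13.3 to 5.08 and 1.94 (−1.10 ± 0.28, 0.0085). Replicate 2 with Zn is the shallow library, with 2 *Omd*, 70 *Ogn* and 1 *Aspn* read pairs. Without it the values were −2.03, −1.81 and −1.06, all called. After the GC content and length correction only *Omd* (−1.25, 0.011) and *Prelp* (−0.71, 0.010) passed, with *Ogn* at −0.70 (0.18) and *Aspn* at −0.15 (0.76). *Prelp* was at −0.62 ± 0.13 (0.0019), *Dcn* at −0.55 ± 0.17 (0.027) and *Fmod* at −0.44 ± 0.15 (0.038) before it, and *Dcn* turned to 0.11 with it. DESeq2 also called *Omd* and *Ogn* (adjusted p = 0.0018 and 0.016), gave like changes with no call for *Prelp* (−0.61, 0.15), *Dcn* (−0.57, 0.43) and *Fmod* (−0.42, 0.45), and gave *Aspn* no adjusted p. *Bgn* was at 0.00 with all libraries and at −0.40 (0.0020) without the shallow one. With Cu, 3 of the 9 were lower, *Prelp* (−0.58 ± 0.10), *Dcn* (−0.77 ± 0.13) and *Fmod* (−0.49 ± 0.12, 0.033), against 0.646% of all genes. This count includes *Prelp* and is a description too. *Dcn* went from 25.2 and 26.2 CPM to 17.5 and 12.4. Their changes were of like size with DESeq2 (−0.60, −0.79 and −0.50) and with the GC content and length correction (−0.59, −0.68 and −0.48), and none was called there (lowest adjusted p of 0.53 and 0.050).

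In *Brd9* KD no member passed with either metal, against 0.274% of all genes called with Cu and 0.0334% with Zn. With Cu, 3 of 6 were under an unadjusted p of 0.05, a count with no share of all genes beside it. *Prelp* was at −1.10 ± 0.27 (edgeR adjusted p = 0.16) as the groups went from 2.90 and 2.56 CPM to 1.21 and 1.42. With Zn, none was under that unadjusted p. DESeq2 called no member with either metal. *Bgn* did not pass in any of the 8 metal comparisons with all libraries, and its log2 change lay between −0.06 (*Baf180* KD, Zn) and 0.17 (scr, Zn).

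**Figure D4:**
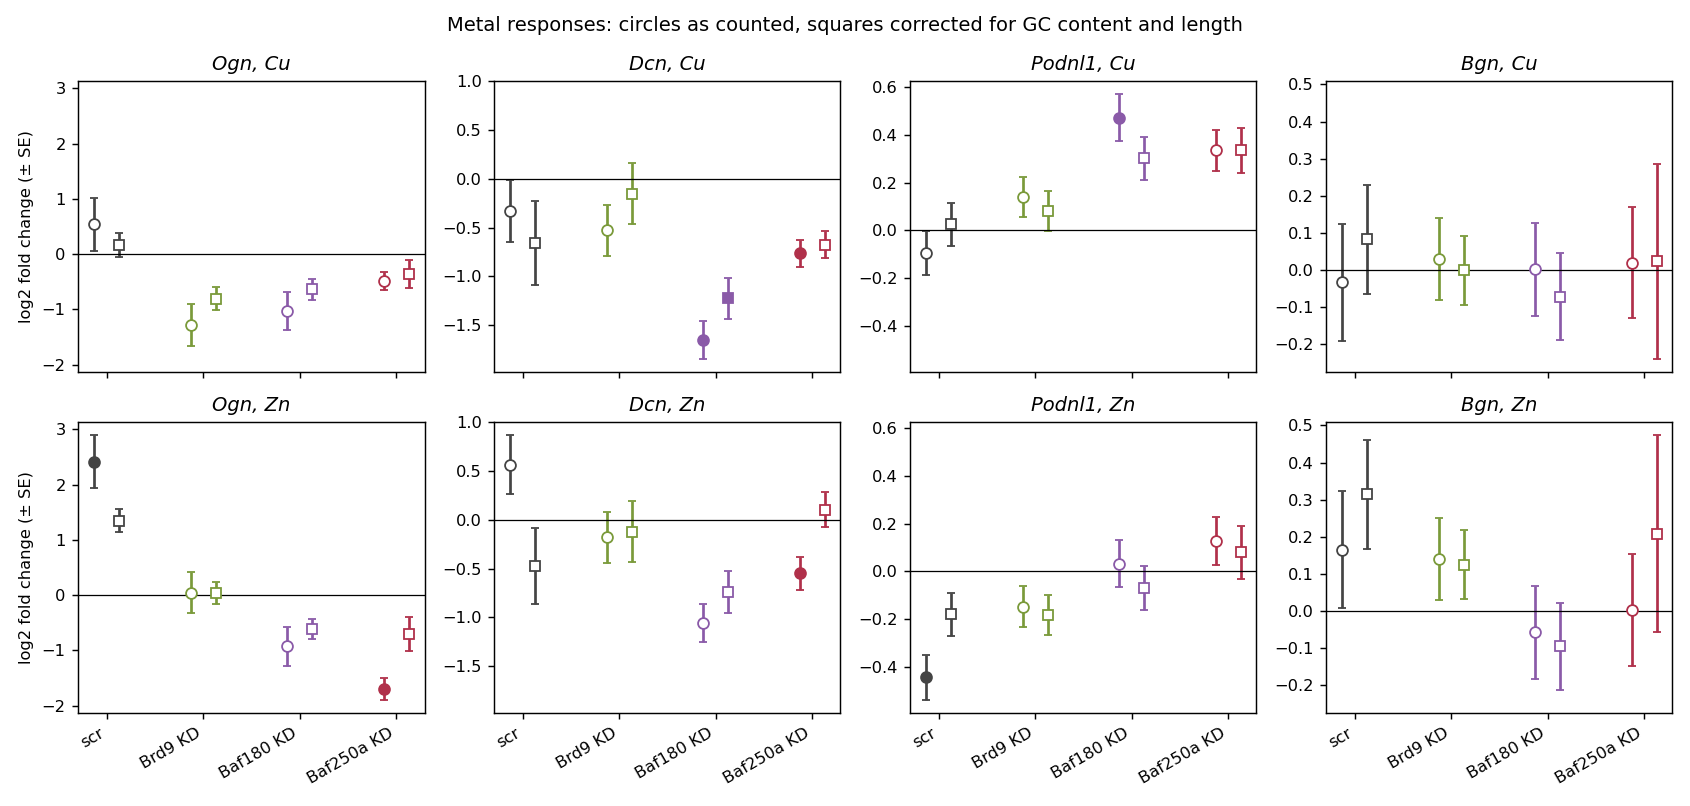
Log2 fold change with Cu (upper row) or Zn (lower row) over NT, ± SE, for *Ogn*, *Dcn*, *Podnl1* and *Bgn* in the 4 cell lines (2 libraries per group), as counted (circles) and with the GC content and length correction (squares); filled symbols have an adjusted p under 0.05 and open ones do not, and each gene has its own vertical range. With Zn, *Ogn* rose by 2.42 in scr and was at −1.69 in *Baf250a* KD as counted, and at 1.35 and −0.70 after the correction.

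Whether a metal response differed between a KD line and scr was tested as an interaction over all 24 libraries. The Zn response of *Ogn* was lower than that of scr in all 3 KD lines, by −3.25 ± 0.65 in *Baf180* KD (edgeR adjusted p = 0.0018), −4.00 ± 0.70 in *Baf250a* KD (4.6e-04) and −2.29 ± 0.66 in *Brd9* KD (0.037). The first 2 kept their call with the GC content and length correction, at −2.04 (0.014) and −2.14 (0.0047), and the third did not, at −1.37 (0.20). The scr side of all 3 is the same 4 libraries. The *Baf250a* KD values with Zn include the shallow library. In *Baf180* KD and *Baf250a* KD, *Dcn* was also lower and *Podnl1* higher in its Zn response than scr, where 12.6% and 13.2% of all genes were lower and 16.1% and 17.3% higher. *Omd*, which went from 1 read pair in scr NT to 29 with Zn and was lower with Zn in *Baf250a* KD, is left as a description, since its KD levels drew attention to the family and scr NT holds too few counts. *Dcn* (−1.54 ± 0.33 and −1.04 ± 0.34) and *Podnl1* (0.58 ± 0.14 and 0.66 ± 0.14) passed in both lines as counted and in neither after the correction, where *Dcn* was at −0.32 and 0.57 and *Podnl1* at 0.13 and 0.32.

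For Cu, *Baf180* KD differed from scr in *Podnl1* (0.62 ± 0.13, edgeR adjusted p = 0.010) and *Dcn* (−1.24 ± 0.36, 0.029), against 5.39% of all genes called higher and 7.41% lower, and after the correction these were 0.29 (0.26) and −0.51 (0.65). In *Baf250a* KD and *Brd9* KD no member's Cu response passed by edgeR or DESeq2, against 0.0121% and 0.0363% of all genes by edgeR. At an unadjusted edgeR p under 0.05, 1 and 3 did, counts with no share of all genes beside them. In *Brd9* KD with Zn, *Ogn* was the 1 member called, against 5.25% of genes called lower.

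The members varied together across the 24 libraries, mostly with the cell line. Over the 28 pairs of the 8 members other than *Lum* and *Podn*, Pearson's r of log2 CPM ran from 0.678 to 0.948 with a median of 0.879. The difference between the 2 replicates of a group, which leaves the line and treatment out, gave r from −0.619 to 0.648 with a median of −0.053 over 12 groups. Libraries share their line and treatment, so these values are descriptive. The pairs include those with *Prelp* or *Omd*, whose KD levels drew attention to the family. No r over pairs of all genes was computed, so the values are not read as particular to the family. Among 12887 genes with a mean of at least 1 CPM, those most like each member in pattern were *C1qtnf3* (r = 0.989) and *Kcnj2* for *Prelp*, *Timp3* (0.988) and *Ttc28* for *Fmod*, *Fam20a* (0.989) and *Pcdh18* for *Bgn*, *Maf* (0.978) and *Tmem123* for *Dcn*, *Slc39a13* (0.982) and *Amotl2* for *Podnl1*. For *Aspn* they were *Ranbp3l* (0.956) and *Lpar4*, for *Omd* *Pappa2* (0.956) and *Pcdhb21*, and for *Ogn* *Cep350* (0.949) and *Gm37534*. *Lum* and *Podn*, with few counts, had no gene above 0.808 (*Dstyk* for *Lum*, with *Lman1* next) and 0.792 (*Msantd4* for *Podn*, with *Asb2* next).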

How the data were processed

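The authors aligned paired-end reads to mm10 with STAR, kept uniquely mapped reads, counted read pairs by strand with featureCounts and tested with DESeq2, as their methods state. The values used were the deposited counts, raw whole numbers in 24 libraries for 55291 genes (495778 to 75179394 counts, median 22158430, which sets the precision). Deposited tables of the authors' own comparisons, with log2 fold changes and p-values, were not used. Groups came from the sample titles, since a treatment tag contradicts them.

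Counts were tested in R 4.3.3 with edgeR 4.0.16 (TMM, filterByExpr, quasi-likelihood test, Benjamini-Hochberg adjusted p under 0.05 over all genes tested). KD against scr was fitted on 4 libraries, metal against NT on the 6 of a line, and interactions and KD against KD on all 24. The replicate number was a block as an alternative. Within *Baf180* KD the deviations of same-numbered samples from their group means correlated between all 3 pairs of treatments (r = 0.134, 0.247 and 0.153). The labels state no pairing. In this line replicates 1 and 2 had GC slopes of 0.0015 and −0.147 (NT), 0.273 and 0.099 (Cu) and 0.226 and 0.0049 (Zn), in log2 per 10 points of GC. The part of GC content in the shared deviations was not tested. An SE is the log2 fold change divided by the root of F. Folds were not given with 3 or fewer counts in a group. A ratio with 1 to 3 counts has an exact 95% interval. Gene models, length and GC content came from GENCODE M21 on GRCm38, promoter sequences from RefSeq on GRCm38.p6. The code was tested on simulated data. Alternatives were DESeq2 1.42.0, RLE size factors, 2 other low-count filters (any gene with 1 count or more, and normalized counts averaging 10 or more), the replicate number as a block, an offset for GC content and length (splines, 5 degrees of freedom), other libraries in the fit and leaving out each library.

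The members, gene lists and tests were chosen with earlier results of these data known. KD against scr was tested for members that passed the filter through scr, and the others described. From each list up to 3 genes were named, those called in 1 direction in all 3 untreated KD comparisons, by their smallest change. For likeness, the 2 genes of highest Pearson's r with a member were named, and for position, overlapping genes and the nearest protein-coding gene on each side.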

Additional observations from a re-analysis of the deposited data

Results flagged for a closer look

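These differences between a KD line's metal response and that of scr passed edgeR's test of the interaction itself, on the log2 scale (KD minus scr, adjusted p under 0.05). With Zn in *Baf180* KD they were −3.25 for *Ogn*, −1.54 for *Dcn* and 0.58 for *Podnl1*, and *Omd* had an adjusted p of 0.023. With Zn in *Baf250a* KD they were −4.00 for *Ogn*, −1.04 for *Dcn* and 0.66 for *Podnl1*, and *Omd* had an adjusted p of 0.0033. With Zn in *Brd9* KD the difference was −2.29 for *Ogn*. With Cu in *Baf180* KD it was −1.24 for *Dcn* and 0.62 for *Podnl1*. All of them use the scr NT libraries, and those for Zn share the scr Zn libraries too, which had a trend with GC content. The *Omd* values rest on 1 read pair in scr NT and on the KD levels that drew attention to the family, and support nothing. After correcting for GC content and length, the 2 still called were *Ogn* with Zn in *Baf180* KD and in *Baf250a* KD.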

How the results depend on the processing

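Values here are the number of members called, *Prelp* and *Omd* left out of comparisons between lines. Counts for metal responses and interactions include both genes, though their KD levels drew attention to the family. Counts between lines include members that passed the filter only through a high line and had to differ, which the report leaves out, so their stability supports nothing. The numbers of members called in KD against scr without metal, in *Baf180* KD and *Baf250a* KD against scr with Zn, in *Baf250a* KD against scr with Cu and between KD lines stayed within 1.5 times of the main value under all settings run. The others moved as follows, each with its main value first, and the cause was not tested. *Brd9* KD against scr with Zn went from 2 to 1 with DESeq2, 1 with RLE size factors, 1 with normalized counts averaging 10 or more and 4 with the replicate block. The Zn response of scr went from 2 to 0 with the replicate block and 0 with the GC content and length correction. The Cu response of scr went from 0 to 1 with all genes of at least 1 count. The Cu response of *Baf180* KD went from 4 to 2 with the GC content and length correction, and its Zn response from 0 to 3 with at least 1 count and 2 with the replicate block. The Cu response of *Baf250a* KD went from 3 to 0 with DESeq2, 6 with at least 1 count, 0 with the GC content and length correction and 0 with all 24 libraries in the fit, and its Zn response from 6 to 2 with DESeq2, 2 with the GC content and length correction and 1 with all 24 libraries. The Cu response of *Brd9* KD went from 0 to 4 with at least 1 count. Among interactions, Cu in *Baf180* KD went from 2 to 0 with the GC content and length correction and 0 with only the 8 libraries compared, Zn in *Baf180* KD from 4 to 1 and Zn in *Baf250a* KD from 4 to 1 with the GC content and length correction. Cu in *Baf250a* KD went from 0 to 1 and Cu in *Brd9* KD from 0 to 2 with at least 1 count. Zn in *Brd9* KD went from 1 to 2 with DESeq2, 2 with at least 1 count and 0 with the GC content and length correction.

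Leaving out each library in turn gave 3 to 6 for *Baf180* KD against scr with Cu and 1 to 3 for *Brd9* KD against scr with Cu. It gave 0 to 2 for Zn in scr, 1 to 5 for Cu in *Baf180* KD, 1 to 6 for Cu in *Baf250a* KD, 1 to 7 for Zn in *Baf250a* KD and 0 to 1 for Cu in *Brd9* KD. For interactions it gave 0 to 2 for Cu in *Baf180* KD, 1 to 5 for Zn in *Baf250a* KD, 0 to 1 for Cu in *Brd9* KD and 0 to 2 for Zn in *Brd9* KD. A group left with 1 library is assumed to vary like the others in the fit. The lowest counts came without *Baf180* KD Cu replicate 2 (3, *Baf180* KD against scr with Cu), without scr NT replicate 2 or either scr Zn replicate (0, Zn in scr), without *Baf180* KD Cu replicate 1 or NT replicate 2 (1, Cu in *Baf180* KD), without *Baf250a* KD Cu replicate 2 or NT replicate 2 (1, Cu in *Baf250a* KD) and without *Baf250a* KD Zn replicate 1 (1, Zn in *Baf250a* KD and its interaction), which leaves the library of 495778 counts alone.

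These log2 changes turned sign, and the cause was not tested. With the GC content and length correction, *Podnl1* of *Brd9* KD against scr NT was at 0.0073, *Ogn* of *Baf180* KD against scr with Zn at 0.59, *Dcn* with Zn at −0.47 in scr and 0.11 in *Baf250a* KD, and the *Dcn* interaction with Zn in *Baf250a* KD at 0.57. *Ogn* of *Baf180* KD against scr with Zn was at 0.019 with all 24 libraries in the fit. *Bgn* with Zn in *Baf250a* KD was at −0.0078 with DESeq2, −0.027 with RLE size factors, −0.039 with at least 1 count, −0.033 with normalized counts averaging 10 or more, −0.016 with the replicate block and −0.031 with all 24 libraries. Leaving out each library gave −0.40 to 0.30 for that value, −0.18 to 0.080 for *Bgn* with Zn in *Baf180* KD, −0.82 to 0.45 for *Ogn* of *Baf180* KD against scr with Zn, −0.49 to 1.23 and −1.23 to 0.024 for *Ogn* of *Brd9* KD against scr with Cu and with Zn, −0.65 to 1.12 for *Ogn* with Cu in scr, and −2.06 to 0.91 and −0.47 to 3.40 for *Podn* of *Baf180* KD against *Baf250a* KD and of *Baf250a* KD against *Brd9* KD.

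By the labels, replicates share only a number. The correlation of same-numbered samples' deviations from their group means ran from −0.137 to 0.206 between KD and scr (over 0.1 in 3 of 9) and from −0.185 to 0.280 within lines (5 of 12). Within *Baf180* KD all 3 were over 0.1, and there replicate 1 had a higher GC slope than replicate 2 under every treatment. What these samples share was not tested, and the number was not taken as a pairing in any line. Depth limits *Lum*, *Podn* and the scr values of *Prelp*, *Omd* and *Fmod* most.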
